A study of Mus musculus with 12 samples.

Results

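Serum response factor (Srf) and 8 genes that encode proteins acting with it or against it were followed in sorted mouse cardiomyocytes. They were taken by name, with no cut on a measured value, though with earlier results of these data known. They are 9 of the 23337 genes in the count tables: Srf itself, the myocardin family (Myocd, Mkl1, Mkl2), the ternary complex factors (Elk1, Elk3, Elk4), and the antagonists Hopx and Fhl2. SRF binds a short DNA element, the CArG box, and has little activity alone. Myocardin family proteins join it on genes of the actin cytoskeleton and the contractile apparatus, and MKL1 and MKL2 do so when monomeric actin releases them to enter the nucleus. Ternary complex factors join it on immediate early genes after phosphorylation by MAP kinases.

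The study asked how loss of Srf changes the transcripts of cardiomyocytes that are still maturing and of mature ones. Polyadenylated RNA was sequenced in 12 samples, 3 biological replicates in each of 4 groups. Every animal received AAV9-cTNT-Cre, a virus that expresses Cre recombinase from the cardiac troponin T promoter, and carried a fluorescent reporter that Cre switches on and that was used to sort the cells. CTRL animals were Srf-flox/+ and KO animals Srf-flox/flox, so CTRL cells had also received Cre and could lose 1 of their Srf copies. P14 CTRL and P14 KO animals were injected at postnatal day 1 and their cells collected at day 14. P90 CTRL and P90 KO animals were injected at day 60 and their cells collected at day 90. The virus dose was low, so that a minority of the cardiomyocytes was hit and the cells were taken from hearts in which most of their neighbours kept Srf. Age, age at injection and time since injection change together between the stages and cannot be told apart.

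Total gene counts ran from 9740389 to 23103460 per sample, and 3 counts corresponded to 0.138 to 0.326 CPM (gene counts scaled to a common library total, with TMM factors over all 12 samples). The sum of 8 cardiomyocyte markers was lower in KO with no overlap at either stage. At P14 it ranged between 93316 and 105945 CPM for CTRL and between 72981 and 80861 for KO, and at P90 between 94096 and 103495 for CTRL and between 85001 and 88673 for KO. Of these markers Myh6, the main adult myosin heavy chain, passed as lower at P14 (log2 fold change −0.65 ± 0.16, adjusted p = 0.0466, edgeR) and was −0.44 ± 0.10 at P90 (adjusted p = 0.0793). Myh6 alone held 46990 to 62575 CPM in P14 CTRL and 31832 to 38363 in P14 KO. At P90 it held 52295 to 60717 in CTRL and 36981 to 42712 in KO. The 8 markers did not move together: at P14, 2 log2 fold changes were positive and 6 negative, with a median of −0.39. At P90, 5 were positive and 3 negative, with a median of 0.09. The part of the lower marker sum in the KO effects was not tested. Summed over 8 genes each, endothelial markers came to between 224 and 530 CPM and fibroblast markers to between 52.1 and 349 CPM, and 7 leukocyte markers to between 5.80 and 24.1 CPM. All 9 genes passed the filter on low counts in every comparison.

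In mm10 coordinates, Srf lies on the minus strand at chr17:46546839-46556162, Myocd on the minus strand at chr11:65176571-65269989, and Mkl2 on the plus strand at chr16:13256481-13417529. Counts summed reads over all exons of a gene, so a deleted exon and the remaining ones were not separated. Of the 9 genes, only Mkl1 shared annotated exon bases with another gene, 10 bases with Sgsm3 on the opposite strand.

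Promoter sequences in RefSeq (GRCm38.p6, the same assembly as mm10), running from 250 bases before to 50 bases after a gene start, were found for 8 of the 9 genes, 15 promoters in all. They are shown because SRF is itself a DNA-binding factor: the sequences shown are the stretches of those promoters that hold a CArG box on the strand printed. The box reads CC, then 6 bases that are each A or T, then GG, a pattern whose reverse complement has the same form, so 1 search covers both strands. It was present in promoters of 3 of the 8 genes, Srf, Hopx and Fhl2, against 1.81% of the 27025 genes with a promoter and 1.63% of 32851 promoters of the same length. Capitals mark the box, and all 4 stretches are on the minus strand, printed 5′ to 3′.
Srf, chr17:46556190-46556249: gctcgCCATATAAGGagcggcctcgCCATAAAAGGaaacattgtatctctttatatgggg
Hopx, chr5:77115172-77115231: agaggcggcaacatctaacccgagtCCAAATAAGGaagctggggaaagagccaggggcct
Fhl2, first promoter, chr1:43196823-43196882: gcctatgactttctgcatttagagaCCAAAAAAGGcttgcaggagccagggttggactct
Fhl2, second promoter, chr1:43163958-43164017: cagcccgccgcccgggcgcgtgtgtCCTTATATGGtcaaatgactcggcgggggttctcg

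The 2 boxes of the Srf promoter began 82 and 62 bases before the gene start. The Hopx box began 83 bases before its start, and the Fhl2 boxes began 96 and 31 bases before theirs. In the authors' gene annotation Fhl2 begins at the second promoter. These matches describe letters in a window and do not show binding in these cells. The promoters listed for Mkl1, Mkl2, Elk1, Elk3 and Elk4 held no such box.

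The 9 genes spanned more than 3 orders of magnitude in level. Per kilobase of exon, the mean level in P14 CTRL was 1986 CPM for Fhl2 and 360 for Hopx, which ranked 27th and 183rd from the top among 12841 genes tested in the fit of all samples. The per-kilobase level was 36.2 CPM for Myocd and 13.9 for Srf, then 4.95 for Elk1, 4.94 for Elk4, 3.95 for Mkl2, 2.66 for Elk3 and 0.993 for Mkl1. The ranges of the 3 samples did not overlap between neighbours from Fhl2 down to Elk1, nor between Elk3 and Mkl1. They did overlap between Elk1 and Elk4 (4.62 to 5.51 and 4.45 to 5.65), between Elk4 and Mkl2 (3.34 to 4.56), and between Mkl2 and Elk3 (1.88 to 4.05). The transcripts of the antagonists were thus the most abundant of the group, and that of Srf stood far below them. These are RNA levels and give no protein level. In P90 CTRL the order was Fhl2, Hopx, Myocd, Srf, Elk4, Elk1, Mkl2, Elk3 and Mkl1, with ranges per kilobase that overlapped between Elk3 (1.38 to 1.93 CPM) and Mkl1 (1.06 to 1.42) and not between the other neighbours. In P14 KO the per-kilobase level of Srf, 2.38 to 7.84 CPM, overlapped those of Mkl2, Elk1, Elk4 and Elk3 (1.99 to 2.83). Srf changed its place: in P14 CTRL it ranked 3922nd among the 12841 genes by level per kilobase, and in P14 KO 6624th.

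**Figure D1:**
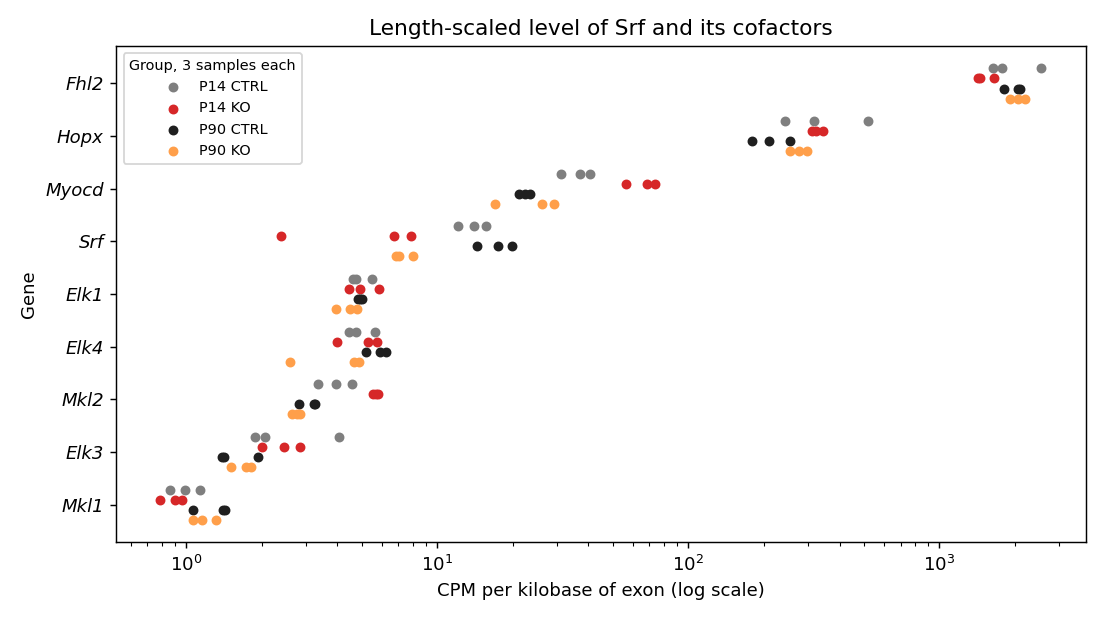
Level of each gene per kilobase of exon, in CPM on a log axis, with 1 point per sample and 3 samples per group. Fhl2 and Hopx lie to the right of all the other genes in every sample, and the Srf points of both KO groups lie left of both CTRL groups.

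Srf was lower in KO cells at both stages. Its level was 64.0, 57.1 and 49.4 CPM in the P14 CTRL samples and 32.1, 27.5 and 9.75 CPM in the P14 KO samples. At P90 it was 71.2, 59.1 and 81.1 CPM in CTRL and 32.9, 28.9 and 28.1 CPM in KO. No KO sample reached the lowest CTRL sample of its stage, and P14 KO replicate 3 stood apart from the other KO samples as the lowest. The KO mean was 40.7% of CTRL at P14 and 42.5% at P90.

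The log2 fold change of Srf was −1.23 ± 0.13 (SE, n = 3 per group) at P90, with an adjusted p of 0.00347 by edgeR's quasi-likelihood test with Benjamini-Hochberg adjustment. At P14 it was −1.30 ± 0.36 with a 95% interval from −2.13 to −0.47, and the same edgeR test gave an adjusted p of 0.0628. The P14 difference therefore did not pass the threshold of 0.05, with a size close to that at P90. Without P14 KO replicate 3 it was −0.92 and passed, with an adjusted p of 0.0474 in edgeR, and DESeq2 gave 0.00216 for all samples. The KO effects at the 2 stages differed by −0.06 ± 0.42 (neonatal minus adult), an interval from −0.96 to 0.83 on the log2 scale. With bulk samples, fewer cells with a transcript and less transcript per cell cannot be told apart, so the remaining reads do not say how many sorted cells kept Srf.

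Myocd and Mkl2 rose in neonatal KO cells, and they were the only members of the 9 that passed the test there. This is 2 of 9, both higher, where 8.59% of the 12546 genes tested passed in either direction and 3.99% passed as higher. Myocd encodes myocardin, the family member restricted to heart and smooth muscle, which stays in the nucleus. Its level was 207, 190 and 160 CPM in P14 CTRL and 375, 289 and 350 CPM in P14 KO. Every KO sample lay above every CTRL sample, and the KO mean was 1.82 times the CTRL mean.

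The log2 fold change of Myocd at P14 was 0.86 ± 0.14 (SE, n = 3 per group), with an adjusted p of 0.0153 by edgeR's quasi-likelihood test. Leaving out P14 KO replicate 1 or 3 took the adjusted p in edgeR to 0.0554 or 0.0636, with log2 fold changes of 0.79 and 0.85. At P90 its level was 108, 114 and 119 CPM in CTRL and 87.2, 133 and 150 CPM in KO. The P90 KO samples lay on both sides of the CTRL samples, and the log2 fold change of 0.12 ± 0.16 did not pass (adjusted p = 0.763, edgeR).

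Mkl2 encodes MRTF-B, an actin-regulated coactivator. Its level was 40.9, 30.1 and 35.6 CPM in P14 CTRL and 52.0, 49.7 and 51.1 CPM in P14 KO. The KO samples were close to each other and all above CTRL, with a mean 1.43 times as high. The log2 fold change was 0.52 ± 0.13 with an adjusted p of 0.0443 in edgeR. That call was lost in 6 of 13 alternative fits: with sex as a covariate (0.0584), without P14 CTRL replicate 2 (0.0587) or 3 (0.0811), and without P14 KO replicate 1 (0.143), 2 (0.136) or 3 (0.148), all adjusted p in edgeR. At P90 Mkl2 was 29.1, 29.0 and 25.3 CPM in CTRL and 23.7, 24.8 and 25.6 CPM in KO. Those ranges overlapped and the log2 fold change of −0.17 ± 0.11 did not pass (adjusted p = 0.485, edgeR).

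Mkl1, which encodes the closely related MRTF-A, was scarce. It held 3.98 to 5.21 CPM in P14 CTRL and 3.64 to 4.42 in P14 KO, from 68 to 111 counts per sample over both groups. At P90 the ranges were 4.89 to 6.57 CPM in CTRL and 4.90 to 6.03 in KO. Groups overlapped at both stages. The log2 fold changes were −0.17 ± 0.22 at P14, which became 0.04 when libraries were scaled by total counts only, and −0.16 ± 0.19 at P90, and the P14 interval from −0.68 to 0.33 does not exclude a change of moderate size either way.

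Within the myocardin family Myocd made up most of the transcripts. Per kilobase it was 87.9% ± 1.5 (SD, n = 3) of the family total in P14 CTRL, 90.9% ± 0.98 in P14 KO, 83.5% ± 1.4 in P90 CTRL and 85.6% ± 3.0 in P90 KO. The family total was 41.2 ± 5.1 CPM per kilobase in P14 CTRL and 72.6 ± 8.8 in P14 KO, and at P90 it ran from 25.8 to 27.6 in CTRL and from 20.7 to 33.4 in KO. The P14 KO samples, from 62.9 to 80.1, lay above the highest P14 CTRL sample at 46.1. Without division by length the Myocd share was 82.2% in P14 CTRL and 85.9% in P14 KO. Set against Srf in the same sample, the Myocd to Srf ratio of CPM per kilobase was 2.58 to 2.66 in P14 CTRL and 8.40 to 28.7 in P14 KO. At P90 this per-kilobase ratio was 1.18 to 1.55 in CTRL and 2.12 to 4.26 in KO. That ratio combines the lower Srf of the genotype with the level of Myocd.

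Myocd is also expressed in smooth muscle, and 1 smooth muscle and pericyte marker moved beside it. Summed over 8 genes these markers reached 85.7 to 173 CPM in P14 CTRL and 199 to 214 in P14 KO. The difference lay in 1 marker, Cspg4, at 31.8 to 65.5 CPM in CTRL and 115 to 131 in KO, with a log2 fold change of 1.34 ± 0.23 (adjusted p = 0.0157, edgeR). It was the only marker of the 7 tested that passed. Of those 7, 3 log2 fold changes were positive and 4 negative at P14, with a median of −0.12. The summed level of the 7 markers other than Cspg4 was 54.0 to 114 CPM in P14 CTRL and 68.4 to 99.5 in P14 KO. Atrial markers summed to 56.7 to 502 CPM in P14 CTRL and 305 to 1182 in P14 KO, with 1 of 4 tested passing. The part of the atrial markers in these results was not tested.

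**Figure D2:**
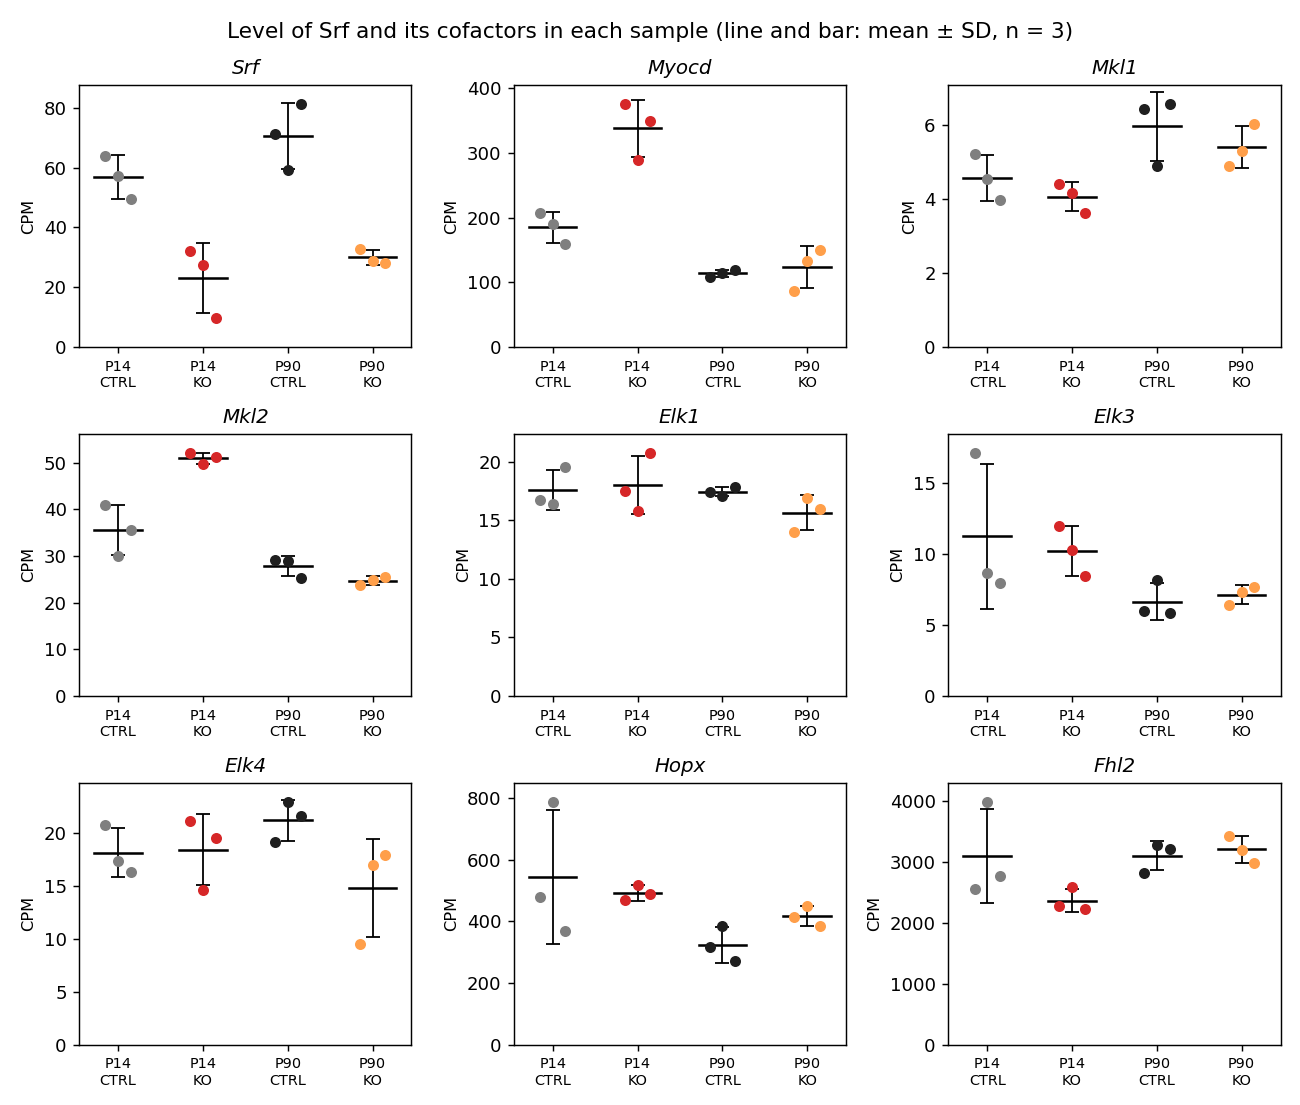
Level of each of the 9 genes in every sample, in CPM on axes that start at 0. Points are samples, lines are means and bars are SD (n = 3). Srf is lower in KO at both stages, and Myocd and Mkl2 are higher in KO at P14 with no overlap between groups.

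The ternary complex factors showed no called change. Elk1, an X-linked gene whose product is activated by ERK, held 16.8, 16.4 and 19.5 CPM in P14 CTRL and 17.5, 15.8 and 20.7 CPM in P14 KO. At P90 it was 17.4, 17.1 and 17.8 CPM in CTRL and 14.0, 16.9 and 16.0 CPM in KO, where no KO sample reached CTRL. The log2 fold changes were 0.03 ± 0.15 at P14 and −0.15 ± 0.12 at P90, with intervals from −0.31 to 0.38 and from −0.42 to 0.12.

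Elk4, which encodes SAP-1, was 20.8, 17.4 and 16.3 CPM in P14 CTRL and 21.2, 14.6 and 19.5 CPM in P14 KO. At P90 it was 19.1, 22.9 and 21.6 CPM in CTRL and 9.49, 17.0 and 17.9 CPM in KO. All P90 KO samples were below CTRL, with P90 KO replicate 1 the lowest by far. The P90 log2 fold change was −0.51 ± 0.21, with an unadjusted p of 0.0311 and an adjusted p of 0.259 in edgeR. Without P90 KO replicate 1 it was −0.27 (adjusted p = 0.439, edgeR), and with no filter on low counts it was −0.50 and passed (adjusted p = 0.0408). At P14 the value was 0.02 ± 0.17.

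Elk3, which encodes Net, a factor that represses until it is phosphorylated, had 1 high sample among the CTRL ones. It was 17.1, 8.70 and 7.96 CPM in P14 CTRL and 12.0, 10.3 and 8.44 CPM in P14 KO. P14 CTRL replicate 1 was the highest of all samples for Elk3 and also held the highest summed endothelial markers, 530 CPM against 224 to 461 in the other samples. The part of endothelial RNA in the Elk3 level was not tested. Its log2 fold change at P14 was −0.14 ± 0.30, and it became 0.29 without that sample and 0.06 with total counts scaling. At P90 it held 5.85 to 8.15 CPM in CTRL and 6.41 to 7.70 in KO, a log2 fold change of 0.12 ± 0.18. None of these passed.

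Summed per kilobase, the 3 ternary complex factors came to 12.6 ± 1.6 CPM (SD, n = 3) in P14 CTRL, 12.5 ± 1.4 in P14 KO, 12.3 ± 0.72 in P90 CTRL and 10.1 ± 1.8 in P90 KO. Elk1 and Elk4 each made up between 39.1% and 47.1% of that sum in the group means, and Elk3 between 12.8% and 20.7%. The sum thus stayed within its spread at P14. At P90 the KO samples, from 8.05 to 11.2, lay below the CTRL samples, from 11.5 to 13.0.

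Hopx, a homeodomain protein that does not bind DNA and represses SRF-dependent transcription, was 478, 786 and 368 CPM in P14 CTRL and 468, 517 and 489 CPM in P14 KO. The P14 KO samples fell inside the wide CTRL range, and P14 CTRL replicate 2 was the highest of all. The log2 fold change was −0.15 ± 0.25, which became 0.22 without that sample and 0.08 with total counts scaling. At P90 Hopx was 315, 385 and 271 CPM in CTRL and 416, 449 and 384 CPM in KO. The lowest KO sample was just under the highest CTRL sample. The P90 log2 fold change was 0.37 ± 0.13, with an unadjusted p of 0.0145 and an adjusted p of 0.202 in edgeR. It passed with no filter on low counts (adjusted p = 0.0277, edgeR), and leaving out single samples gave adjusted p from 0.116 to 0.509.

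Fhl2 encodes a LIM-only protein that binds SRF and can act against MRTF coactivators. Its level was 2554, 3985 and 2771 CPM in P14 CTRL and 2276, 2583 and 2234 CPM in P14 KO. Here too P14 CTRL replicate 2 was the highest, and the lowest CTRL sample lay just below the highest KO sample. The log2 fold change of −0.40 ± 0.18, with an interval from −0.81 to 0.02, did not pass (adjusted p = 0.212, edgeR). Without P14 CTRL replicate 2 it was −0.17, and with total counts scaling also −0.17. At P90 it was 2828 to 3276 CPM in CTRL and 2983 to 3434 in KO, a log2 fold change of 0.05 ± 0.10 with an interval from −0.16 to 0.27.

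Counting the whole set, 1 of 9 genes passed at P90, Srf itself and lower, where 0.39% of 11808 genes passed and 0.152% passed as lower. Srf is the gene that the design deletes, so its call says nothing about the cofactors, none of which passed at P90. It is also included in the overlap counts and medians that follow. The groups did not overlap in CPM for 3 of 9 genes at P14 (Srf, Myocd and Mkl2), where the same was true of 32.7% of genes, and for 3 of 9 at P90 (Srf, Elk1 and Elk4), where it was true of 21.6%. The median log2 fold change over the 9 genes was −0.14 at P14 and −0.15 at P90, against 0.00 and 0.01 over all genes. Scaling by total counts moved the median of all genes at P14 by 0.22, and the split of calls there from 501 higher and 577 lower to 1405 higher and 319 lower. The P14 calls for Myocd and Mkl2 were made under both scalings.

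The difference between the stages was tested directly. None of the 9 genes passed the test of neonatal minus adult KO effect in edgeR, where 1.78% of 12841 genes passed. Myocd and Mkl2 were the 2 genes with an unadjusted p under 0.05 in edgeR, and both passed in DESeq2, with adjusted p of 0.0483 and 0.00878. DESeq2 called 897 genes in all in that test. For Mkl2 the difference was 0.69 ± 0.16 with an interval from 0.34 to 1.05 (adjusted p = 0.0513, edgeR). For Myocd it was 0.75 ± 0.24 with an interval from 0.23 to 1.27 (adjusted p = 0.119, edgeR). Among 18 alternative fits the difference passed in 4 for Mkl2 and in 2 for Myocd, and it was positive in all of them. The KO effect was thus higher at P14 than at P90 for both genes, with intervals that exclude 0 before adjustment over all genes and no call after it.

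**Figure D3:**
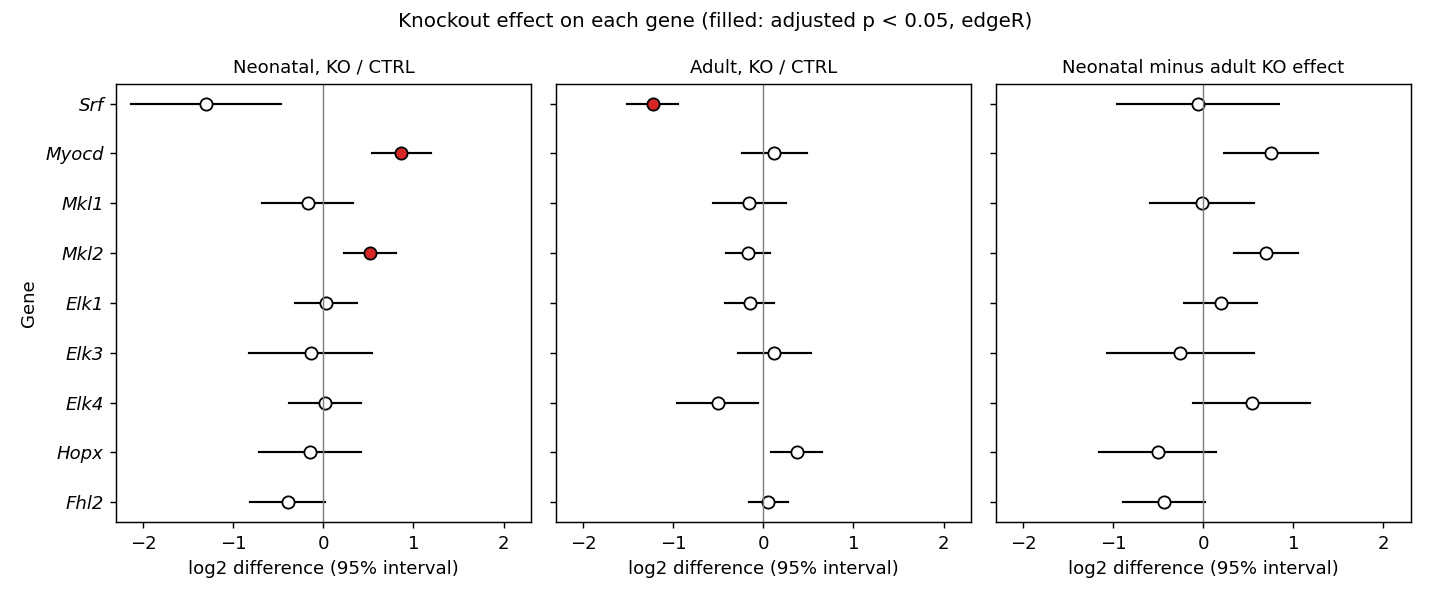
KO effect on each gene as a log2 fold change with its 95% interval, at P14 (left) and P90 (middle), and the neonatal minus adult difference (right). Filled points passed an adjusted p of 0.05 in edgeR: Myocd (0.86) and Mkl2 (0.52) at P14 and Srf (−1.23) at P90.

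**Figure D4:**
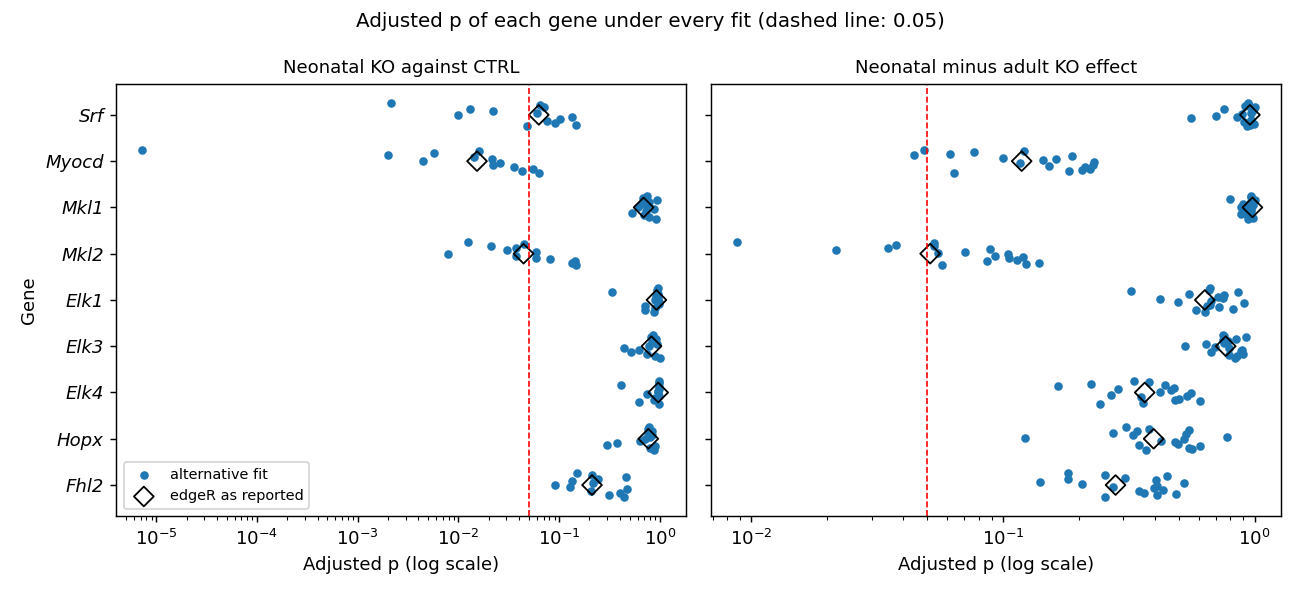
Adjusted p of each gene on a log axis for the reported edgeR fit (diamond) and every alternative fit (points), at P14 (left) and for the neonatal minus adult difference (right). At P14 Myocd lies left of the dashed line at 0.05 in 12 of 14 fits, Mkl2 in 8 and Srf in 5.

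In CTRL cells Myocd was also the gene whose level differed by test between the stages. It passed as lower at P90, 1 of 9 genes, where 29.3% of 12294 genes passed and 14.9% passed as lower. Its mean was 185.5 CPM in P14 CTRL and 114 in P90 CTRL, a log2 fold change of −0.70 ± 0.12 (adjusted p = 0.00383, edgeR), and this call held in all 13 alternative fits. In the same CTRL samples fibroblast markers summed to 117 to 326 CPM at P14 and 52.1 to 73.4 at P90, and smooth muscle and pericyte markers other than Cspg4 to 54.0 to 114 and 51.6 to 82.3. Their part in the Myocd difference was not tested. The P14 KO level of Myocd therefore stood further from the P90 CTRL level than the P14 CTRL level did. For Mkl2 the log2 fold change between the CTRL groups was −0.35 ± 0.15 and did not pass (adjusted p = 0.104, edgeR).

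Elk3 and Hopx had larger values with wider errors. The log2 fold change of P90 against P14 CTRL was −0.77 ± 0.31 for Elk3 (adjusted p = 0.0941, edgeR) and −0.74 ± 0.25 for Hopx (adjusted p = 0.0532, edgeR). Each rested in part on 1 sample: without P14 CTRL replicate 1 the Elk3 value was −0.32, and without P14 CTRL replicate 2 the Hopx value was −0.40. Both were negative in all 14 fits, down to −0.96, and Elk3 passed in 4 of them and Hopx in 6. Srf (0.31 ± 0.15), Mkl1 (0.39 ± 0.23), Elk4 (0.22 ± 0.15), Elk1 (−0.01 ± 0.14) and Fhl2 (0.01 ± 0.16, or −0.10 with total counts scaling) passed in 0 of the 14 fits.

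Genes that act upstream of these cofactors or beside them were read from lists chosen with earlier results known. Of 11 genes of MAP kinase signalling to the ternary complex factors, 1 passed as higher and 1 as lower at P14, where 8.59% of all genes passed. At P90, 0 passed in edgeR, with 1 at an unadjusted p under 0.05, a count whose share over all genes is not given. DESeq2 called 1 of the list there and 312 genes in all. Mapk3, which encodes ERK1, had a log2 fold change of 0.68 ± 0.14 at P14 (adjusted p = 0.0246, edgeR). Mapk14, which encodes p38 alpha, had −0.46 ± 0.10 (adjusted p = 0.0255, edgeR). The list's median was −0.16 at P14 and −0.07 at P90. At P90 the values were 0.58 ± 0.14 for Mapk3 and −0.17 ± 0.09 for Mapk14. Neither P14 call held without P14 KO replicate 1, 2 or 3, where 0 of the list passed. That of Mapk3 was also lost without P14 CTRL replicate 3, and that of Mapk14 without P14 CTRL replicate 1 and with total counts scaling.

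Of 14 other partners of SRF, 2 passed as higher and 1 as lower at P14, against the same 8.59% of all genes. At P90, 0 passed in edgeR, with 5 at an unadjusted p under 0.05, a count whose share over all genes is not given. DESeq2 called 1 of the list there and 312 genes in all. Csrp2, which encodes a LIM protein of smooth muscle and developing heart, fell by 1.10 on the log2 scale at P14 (SE 0.13, adjusted p = 0.00699, edgeR) and was 0.28 ± 0.21 at P90. The difference between stages for Csrp2 was −1.37 ± 0.26 (adjusted p = 0.0252, edgeR), and it passed in 10 of 18 alternative fits. Fhl1, a relative of Fhl2, rose at P14 by 0.88 ± 0.16 (adjusted p = 0.0189, edgeR), and Csrp3, the muscle LIM protein, by 0.57 ± 0.11 (adjusted p = 0.0222, edgeR). Fhl1 thus rose in the same samples in which Fhl2 was measured at −0.40 with no call. The P14 call of Csrp2 held in all 13 alternative fits, and those of Fhl1 and Csrp3 in 9, being lost without any 1 of the P14 KO samples and without P14 CTRL replicate 1 (Fhl1) or 3 (Csrp3).

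Known targets were read from 2 further lists. Of 18 actin and contractile targets, 1 passed as higher and 5 as lower at P14, where 8.59% of all genes passed, and 0 and 4 at P90, where 0.39% passed. The medians were −0.50 and −0.35. Ckm, the muscle creatine kinase, was −1.96 ± 0.37 at P14 and −0.99 ± 0.12 at P90 (adjusted p = 0.0200 and 0.00755, edgeR). Actg1, a cytoplasmic actin, was −1.41 ± 0.29 and −0.71 ± 0.11 (adjusted p = 0.0252 and 0.0280, edgeR). Acta2, smooth muscle actin, passed at P14 (−1.87 ± 0.29, adjusted p = 0.0128, edgeR), and Pdlim7, a PDZ and LIM protein, passed at P90 (−1.08 ± 0.14, adjusted p = 0.00855, edgeR). At the other stage Acta2 was −1.06 ± 0.23 (adjusted p = 0.0762, edgeR) and Pdlim7 −1.42 ± 0.39 (adjusted p = 0.0616, edgeR), and neither gene's difference between stages passed. At P14, Ckm, Actg1 and Acta2 were lower in the same samples in which Myocd and Mkl2 were higher. The count of 6 called at P14 became 1, 0 and 4 without P14 KO replicates 1, 2 and 3, and the 4 at P90 became 0 without P90 KO replicate 2, 1 without P90 CTRL replicate 3, and 2 without P90 CTRL replicate 1 or P90 KO replicate 3. Of the immediate early targets, 0 of 10 tested passed at P14 and 0 of 11 at P90 in edgeR, with 2 and 8 at an unadjusted p under 0.05. DESeq2 called 1 at each stage, where it called 1798 genes in all at P14 and 312 at P90. All 11 had a positive log2 fold change at P90, with a median of 0.81. With no filter on low counts 8 passed there, in a fit that called 701 genes in all against 46 as reported. Shares over all genes are not given for the counts by unadjusted p.

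The genes whose level was most like each member's across the 12 samples were found by Pearson's r of log2 CPM among 9466 genes with a mean of at least 5 CPM. These values describe samples that share libraries, stages and genotypes, and carry no test. For Srf they were Myom1 (r = 0.964), a protein of the sarcomere's M-band, and Ckm (0.960), and after each stage's mean was subtracted Kcnip2 (0.966), Myom1 (0.962), Actg1 (0.961), Pdlim7 (0.959) and Ckm (0.957). For Myocd they were Prkg1 (0.978), a cGMP-dependent kinase, and Ddi2 (0.967). For Mkl2 they were Nedd4l (0.984), a ubiquitin ligase, and Cspg4 (0.979), the only gene of the smooth muscle and pericyte list that passed at P14. Prkg1 and Nedd4l had log2 fold changes of 1.15 and 0.54 at P14 (adjusted p = 0.0150 and 0.0209, edgeR) and −0.26 and −0.13 at P90. Without any 1 of the P14 KO samples these P14 calls, and that of Cspg4, were lost.

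For Elk3 the most similar genes were Gpr4 (0.935) and Gpihbp1 (0.924), of which Gpihbp1 is made by capillary endothelium. Ranbp2 (0.951) was among the genes most like Elk4, and for Elk1 they were Exoc4 (0.889) and Rreb1 (0.875). Mkl1 was most like Tesk1 (0.916) and Rusc2 (0.910). Hopx was most like Cdc42 (0.952) and Eif1ax (0.939), and Fhl2 most like Mrps22 (0.963) and Srp19 (0.962).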

How the data were processed

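RNA of FACS-sorted cardiomyocytes was made into SMART-Seq v4 and Nextera XT libraries. The authors deposited raw read counts per gene for both stages, made per the labels with CASAVA 1.8, STAR 2.5.3a and featureCounts of Subread 1.5.2 on mm10. Strand use in counting is not given in the sources used here. From these counts, edgeR 4.0.16 (R 4.3.3; filterByExpr, TMM, quasi-likelihood F-test, Benjamini-Hochberg adjustment over all genes tested, threshold 0.05) compared KO with CTRL within each stage, P90 with P14 in CTRL, and the KO effects between stages. SE is the log2 fold change divided by the root of its F statistic. The study's tool, DESeq2 (1.42.0), was one alternative. Others were RLE or total counts scaling, no filter, a replicate block, sex from Y-linked counts (100 or more) as a covariate, a fit of all 12 samples, and leaving out each sample. Same-numbered CTRL and KO samples had correlated deviations of 0.047, 0.148 and 0.36 at P14 and 0.181, −0.000342 and 0.054 at P90, so the numbers were not taken to pair samples.

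The members and lists were chosen with earlier results of these data known. Named genes are the 9 members, the 2 genes most like each (for Srf also 5 after subtraction of stage means), and up to 4 genes per pathway list with the smallest p among those that passed. Cspg4 and Myh6, markers that moved, and the atrial markers Nppa, Myl4, Myl7 and Sln were named after their values were seen. Tables held counts only, with 0 sample columns unused. Results for 1 pathway list and 1 gene chosen by these rules are not reported here.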

Additional observations from a re-analysis of the deposited data

Results flagged for a closer look

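The KO effect differed between the stages for 4 genes named beside the 9, by edgeR's test of neonatal minus adult effect, where 1.78% of 12841 genes passed. Csrp2, a LIM protein listed as an SRF partner, differed by −1.37 ± 0.26 (SE, n = 3 per group, 95% interval from −1.93 to −0.81, adjusted p = 0.0252). Nedd4l, the ubiquitin ligase closest to Mkl2 in level across samples, differed by 0.68 ± 0.12 (interval from 0.41 to 0.94, adjusted p = 0.0235, edgeR). Prkg1, the kinase closest to Myocd, differed by 1.42 ± 0.30 (interval from 0.77 to 2.06, adjusted p = 0.0369, edgeR), and Cspg4, of the smooth muscle and pericyte list, by 1.42 ± 0.31 (interval from 0.76 to 2.08, adjusted p = 0.0415, edgeR). Nedd4l, Prkg1 and Cspg4 entered because their levels or their marker list moved with Myocd or Mkl2 in these same samples, so their results are not independent of those genes. Csrp2 was named for its small p at P14 in samples that also enter this test. All 4 were thus picked by values of these data, and the share over all genes is not a background for them. Among 18 alternative fits the difference passed in 10 for Csrp2, 10 for Nedd4l, 9 for Prkg1 and 9 for Cspg4, and it was lost for each of them without any 1 of the P14 KO or P90 CTRL samples and without P90 KO replicate 1 or 2. None of the 9 genes passed this test in edgeR (2 had an unadjusted p under 0.05, and DESeq2 called 2).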

How the results depend on the processing

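Of 513 alternative values for the 9 genes, 444 kept their direction and side of the threshold, 33 changed sign, 27 passed where the reported value did not, and 9 lost a call. Genes called at P14 (1078 as reported) were 1798 with DESeq2, 1724 with total counts and 2088 with all 12 samples in one fit, and 111 to 1004 when single samples were left out. Members called at P14 (2) were 3 with DESeq2, no filter, the replicate block or all 12 samples, where Srf was added, 1 with sex as a covariate and 0 to 2 without single samples, the lowest without P14 KO replicate 1. Genes called at P90 (46) were 312 with DESeq2, 701 with no filter, 655 with the replicate block, 16 with sex and 3 with all 12 samples, and 6 to 51 without single samples. Members called at P90 (1) were 3 with no filter and 3 with the block, where Elk4 and Hopx were added, and 0 with all 12 samples, where the adjusted p of Srf was 0.180. For the difference between stages (228 genes) the counts were 897 with DESeq2, 474 with no filter, 687 with the block, 86 with sex and 4 to 377 without single samples, and members called (0) were 2 with DESeq2, 1 with total counts, 2 with the block and 0 to 1 without single samples. For CTRL P90 against P14 (3607 genes) 2067 to 4768 genes were called without single samples, and members called (1) were 2 with DESeq2, 2 with total counts, 3 with no filter, 2 with the block, 4 with all 12 samples and 1 to 3 without single samples. The cause of these shifts was not tested. With total counts, signs changed at P14 for Mkl1 (0.0374), Elk3 (0.0574) and Hopx (0.0814), for the stage difference of Srf (0.10) and Mkl1 (0.15), and for Fhl2 in CTRL (−0.0957). Leaving out single samples gave ranges across 0 at P14 for Elk1 (−0.0648 to 0.13), Elk3 (−0.34 to 0.29), Elk4 (−0.0833 to 0.18) and Hopx (−0.37 to 0.22), at P90 for Myocd (−0.0431 to 0.31), Fhl2 (−0.0196 to 0.0969) and Cspg4 (−0.20 to 0.095), for the stage difference of Srf (−0.37 to 0.29), Mkl1 (−0.0914 to 0.11) and Elk3 (−0.44 to 0.18), and in CTRL for Elk1 (−0.0712 to 0.0814) and Fhl2 (−0.10 to 0.21). Replicate numbers are not stated to pair the samples and were not taken to do so, and no weaker or stronger effect is read from the block. With 3 samples per group no test for outlying samples was made. Mkl1, with 45 to 125 counts per sample, has the least depth behind its values.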
